A study of Homo sapiens with 5 samples.

Results

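The endoplasmic reticulum (ER) genes described here are 32 genes of protein folding, of the sensors of ER stress and of ER-associated degradation, the route by which misfolded proteins leave the ER for the proteasome. They were chosen by name, with earlier results of these data known. All 32 were found by Ensembl ID among the 58812 gene IDs of the count table. All passed the filter on low counts, which left 20649 genes for testing. RNA sequencing was run on 5 libraries of C4-2B, a human metastatic castration-resistant prostate cancer line grown in C4-2B medium. The groups were C4K13A, a clone mutant for K13A in the homeobox transcription factor HOXB13 (2 libraries), C5K13A, a clone with the same mutation (1 library), and Parental, the unmodified line (2 libraries). Each mutant line is 1 clone, how the mutation was made is not given in the labels, and no untargeted control clone was analysed here, so the mutation and the clone cannot be told apart. The question put to the ER genes was whether they moved with the genes of the ATF4 branch or apart from them.

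Unfolded protein in the ER is sensed by the membrane proteins IRE1 (gene ERN1), ATF6 and PERK (gene EIF2AK3). IRE1 splices the XBP1 mRNA, and spliced XBP1 together with cleaved ATF6 switches on chaperone and degradation genes. PERK, like the cytosolic kinases that sense amino acid or haem shortage, phosphorylates the translation factor eIF2 alpha, which raises translation of ATF4, a transcription factor for amino acid transport, amino acid synthesis and tRNA charging. Splicing of XBP1, cleavage of ATF6 and phosphorylation of PERK cannot be seen in gene counts.

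Library totals ran between 43190276 and 48442286 counts in the K13A libraries and between 51978974 and 57282373 in the Parental libraries. HOXB13 stood at 344 and 348 CPM (counts scaled to library size) in C4K13A and 352 in C5K13A, against 338 and 448 in Parental, with a log2 fold change of -0.18 (edgeR quasi-likelihood test, adjusted p = 0.739). Its gene count cannot show a point substitution. All 8 luminal prostate markers were above 1 CPM in every library, their summed level being 4889 to 5869 CPM in K13A and 4761 to 6579 CPM in Parental. Leukocyte markers summed to at most 0.374 CPM, with CD3E at 0 throughout. Plasma cell markers, listed because those cells carry much ER, summed to 60.6 to 85.8 CPM in K13A and 60.0 to 72.3 CPM in Parental. Most of that was SDC1, at 55.4 to 82.8 CPM over the 5 libraries, with JCHAIN and IRF4 at 0. Fibroblast markers summed to 3.72 to 5.51 CPM in K13A and 6.79 to 6.85 CPM in Parental, with LUM at 0. Endothelial markers summed to 2.66 to 4.34 CPM in K13A and 5.61 to 5.73 CPM in Parental. Nearly all of this was COL1A1 (3.67 to 6.69 CPM) and VWF (2.64 to 5.60 CPM). The other fibroblast and endothelial markers were at most 0.202 CPM in any library. A chi-square per gene on raw counts, which grows with library size, was highest for the Parental pair of all 10 pairs of libraries, at 165. C5K13A with Parental library 1 followed at 163, and C4K13A library 2 with C5K13A was lowest, at 51.2. The Parental libraries had the largest totals, so these values do not rank the pairs apart from library size. Mitochondrial ribosomal RNA also differed within groups, at 65.4 and 353 in C4K13A and 658 CPM in C5K13A, against 29.03 and 1723 CPM in Parental. Nothing in the labels tells whether the libraries of a group are separate cultures, and the p-values cover the spread between libraries alone, which may be technical.

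In the K13A libraries the ER genes as a list lay close to their Parental levels, whereas the ATF4 branch lay well below. Both lists were chosen with earlier results of these data known, so the gap between them is a description and not a test. The median log2 fold change of all K13A libraries over Parental was -0.11 over the 32 ER genes, -0.87 over the 47 genes of the ATF4 branch and -0.00 over all genes tested. By edgeR with Benjamini-Hochberg adjustment over all genes, 0 of 32 ER genes passed 0.05 in either direction, where the share of all genes passing was 0.203%. Before adjustment 4 ER genes had p under 0.05, which is 12.5% of the list against 11% of all genes, and all 4 were lower in K13A, as were 6.68% of all genes. DESeq2 called 2 ER genes lower, ERN1 and HERPUD1, where it called 1.51% of all genes lower. In the ATF4 branch edgeR called 4 genes lower, where 0.189% of all genes were called lower, and 38 of 47 had an unadjusted p under 0.05, all lower. Fold changes of the ER genes ran from -1.20 (ERN1) to 0.29 (SEC61B) on the log2 scale, and those of the ATF4 branch from -3.66 (GDF15) to 0.29. Of the ER genes 28 of 32 (87.5%) lay within 0.5 log2 units of Parental, as did 72.6% of all genes and 13 of 47 in the ATF4 branch, among them 7 of its 11 genes for tRNA charging and translation (median -0.39). For 28 of 32 ER genes the 95% interval excluded a 2-fold difference in both directions, as it did for 10486 of the 20649 genes tested. Because the libraries are bulk RNA, fewer cells with a transcript and less RNA per cell cannot be told apart.

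**Figure D1:**
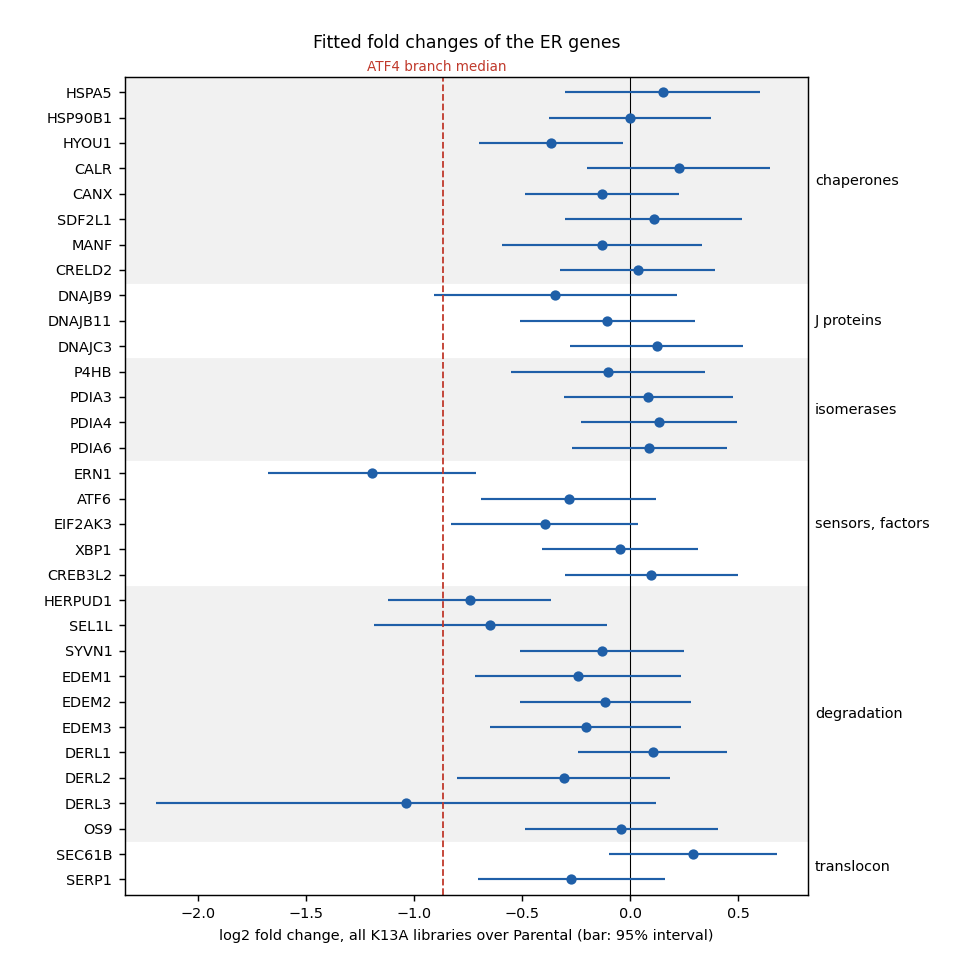
Fitted log2 fold change of each ER gene, all 3 K13A libraries over the 2 Parental libraries, with its 95% interval as a bar and genes grouped by role. Most points lie near 0, ERN1 is at -1.20 and HERPUD1 at -0.74, and the dashed line at -0.87 is the median of the ATF4 branch.

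**Figure D2:**
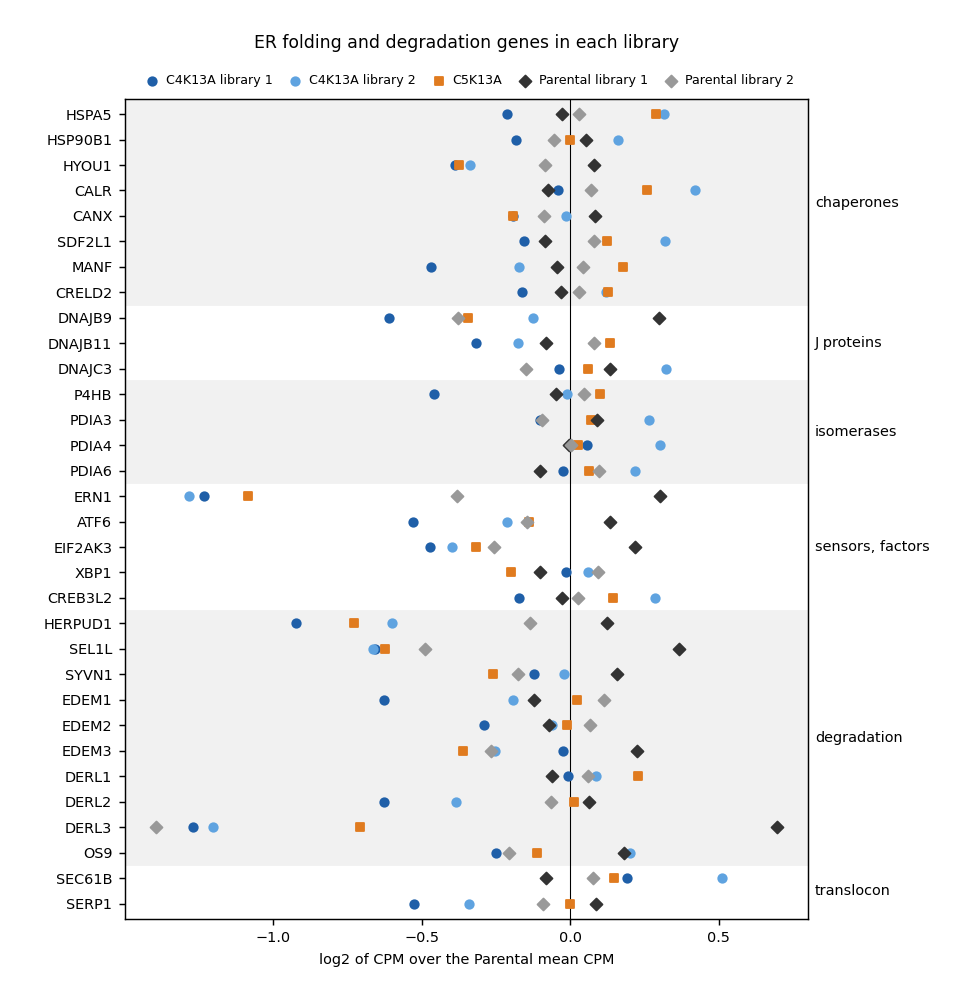
Level of each ER gene in each of the 5 libraries, as log2 of its CPM over the mean CPM of the 2 Parental libraries (0 on the axis). C4K13A library 1 is the lowest library for 19 of the 32 genes, against 18.4% of all genes. Parental library 1 is the highest for 13, against 28.6% of all genes.

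The promoter letters below are shown because the branches are known to act through different DNA elements. In RefSeq promoters of build GRCh38.p14, each covering 250 bases before to 50 bases after a start, 29 of the 32 ER genes were matched, with 36 promoters among them. PDIA3, DERL1 and DERL3 had no entry. The ER stress element (ERSE) was searched on both strands as CCAAT followed after 9 bases by CCACG, the second form (ERSE-II) as ATTGG followed after 1 base by CCACG, the unfolded protein response element as TGACGTGG and the ATF4 site (CARE) as TGATGNAA. ERSE was in 27.8% of the 36 ER promoters, in 8 genes, against 0.0769% of all 35116 promoters, and ERSE-II was in 8.33%, in 3 genes, against 0.0541%. The unfolded protein response element was in HYOU1 alone among the ER genes, overlapping an ERSE-II match there, which is 2.78% of ER promoters against 0.729% of all. CARE was in CREB3L2 and HERPUD1, which is 5.56% of ER promoters against 3.62% of all. Among the 47 genes of the ATF4 branch 38 were matched, with 58 promoters, of which 22.4% held CARE, 3.45% the unfolded protein response element and 0 held either form of ERSE. These matches are letters in a window and do not show binding. In the elements below, read along the strand that carries them, capitals mark the fixed letters.
HSPA5, ERSE, chr9:125241391-125241409, minus strand: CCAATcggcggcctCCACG
CALR, ERSE, chr19:12938384-12938402, minus strand: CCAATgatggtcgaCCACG
XBP1, ERSE, chr22:28800603-28800621, minus strand: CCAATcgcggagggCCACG
SERP1, ERSE, chr3:150546710-150546728, plus strand: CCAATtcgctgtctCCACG
HYOU1, ERSE-II, chr11:119057274-119057284, plus strand: ATTGGaCCACG
SDF2L1, ERSE-II, chr22:21642114-21642124, minus strand: ATTGGtCCACG
HERPUD1, ERSE-II, chr16:56932025-56932035, plus strand: ATTGGgCCACG

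HERPUD1 held both an ERSE-II and a CARE match, and the 250 bases before its start are shown between those of HSPA5, which held an ERSE, and of ASNS, an ATF4 branch gene for asparagine synthesis that held a CARE. Each is read 5′ to 3′ along the gene's strand, and capitals mark the matched letters. In HERPUD1 the first run of capitals is CARE on the opposite strand, so its letters appear reverse complemented.
HSPA5, chr9:125241344-125241593, minus strand: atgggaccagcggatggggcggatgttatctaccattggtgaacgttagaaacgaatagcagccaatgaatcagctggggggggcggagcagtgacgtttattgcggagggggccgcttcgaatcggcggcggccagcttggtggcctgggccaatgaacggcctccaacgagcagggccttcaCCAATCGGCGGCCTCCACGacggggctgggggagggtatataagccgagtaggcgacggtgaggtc
HERPUD1, chr16:56931892-56932141, plus strand: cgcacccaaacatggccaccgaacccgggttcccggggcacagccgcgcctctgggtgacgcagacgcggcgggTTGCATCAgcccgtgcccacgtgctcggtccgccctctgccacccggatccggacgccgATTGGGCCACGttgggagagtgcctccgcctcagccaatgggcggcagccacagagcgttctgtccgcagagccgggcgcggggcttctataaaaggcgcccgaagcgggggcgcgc
ASNS, chr7:97872409-97872658, minus strand: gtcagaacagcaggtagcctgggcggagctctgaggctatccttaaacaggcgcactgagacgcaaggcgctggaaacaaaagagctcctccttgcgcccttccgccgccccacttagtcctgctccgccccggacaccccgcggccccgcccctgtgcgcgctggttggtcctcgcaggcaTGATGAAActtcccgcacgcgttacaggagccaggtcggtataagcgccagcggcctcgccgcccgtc

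The chaperones of the ER lumen were near Parental levels, with a median log2 fold change of 0.02 over 8 genes, of which 0 passed the test. HSPA5, which encodes BiP, the Hsp70 chaperone of the ER and the common marker of the unfolded protein response, had levels of 486 and 701 CPM in C4K13A libraries and 688 CPM in C5K13A, against 552 and 575 CPM in Parental. One C4K13A library was below both Parental libraries and the other K13A libraries were above both. Its log2 fold change was 0.15 ± 0.20 (SE), with a 95% interval of -0.30 to 0.60 (edgeR, adjusted p = 0.820). CALR, the lectin chaperone calreticulin, had the highest level of the ER genes per length of exon, at 589 CPM per kilobase in K13A and 505 in Parental. It read 1330.5 and 1830.4 in C4K13A and 1636 CPM in C5K13A, against 1301 and 1437 CPM in Parental, and the groups overlapped. HSP90B1, the ER form of Hsp90, averaged 552 ± 65.0 CPM in K13A (SD, n = 3) and 552 ± 28.3 CPM in Parental (SD, n = 2). CANX, the membrane lectin chaperone calnexin, averaged 561 ± 41.4 CPM in K13A and 615 ± 52.5 CPM in Parental. SDF2L1, a partner of BiP, had a log2 fold change of 0.11 and CRELD2, a disulfide isomerase-like stress gene, one of 0.03. MANF, a secreted factor that binds BiP, had a log2 fold change of -0.13 and is taken up with the clones.

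HYOU1, a large Hsp70 relative that exchanges the nucleotide on BiP, was the exception among chaperones. It read 279 and 289 in C4K13A and 281 CPM in C5K13A, against 386 and 344 CPM in Parental. Every K13A library was below both Parental libraries, and the SD of the K13A libraries was 5.06 CPM (n = 3). The log2 fold change of -0.37 had an unadjusted p of 0.034, and edgeR's adjusted p was 0.414. Non-overlap of this kind was seen for 5 ER genes lower in K13A, where 14.9% of all genes were separated that way, and for 2 higher, PDIA4 and SEC61B, where 13.6% of all genes were. The count of lower ER genes was therefore near the background, and that of higher ones was not above it.

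The J proteins, which deliver substrates to BiP, and the disulfide isomerases showed no called gene. DNAJB9, an IRE1 and XBP1 target that also holds IRE1 inactive, read 13.7 and 19.2 in C4K13A and 16.5 CPM in C5K13A, against 25.8 and 16.1 CPM in Parental. The Parental libraries differed by more than the K13A libraries did, and its log2 fold change of -0.35 was 0.03 without Parental library 1. DNAJB11 and DNAJC3 had log2 fold changes of -0.11 and 0.12. Among the isomerases, which form and rearrange disulfide bonds, P4HB read 608 and 829 in C4K13A and 895 CPM in C5K13A, against 808 and 863 CPM in Parental, with groups that overlapped. PDIA3, PDIA4 and PDIA6 had log2 fold changes of 0.08, 0.13 and 0.09, and the median over the 4 isomerases was 0.09. PDIA4 was higher in every K13A library, at 297 and 352 in C4K13A and 291 CPM in C5K13A, against 285 and 286 CPM in Parental, but the gap between C5K13A and Parental was small beside the spread of the K13A libraries (33.7 CPM, SD, n = 3).

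Among the sensors and factors, ERN1 had the largest fold change of the ER genes. ERN1 (ENSG00000178607, chr17:64039142-64130819 in the GENCODE v29 annotation of GRCh38, minus strand), the kinase and RNase that splices XBP1, read 28.5 and 27.5 in C4K13A and 31.6 CPM in C5K13A, against 82.5 and 51.4 CPM in Parental. All 3 K13A libraries lay close together and below both Parental libraries, which were themselves apart. The mean was 29.2 ± 2.12 CPM in K13A (SD, n = 3) and 67.0 ± 21.96 CPM in Parental (SD, n = 2). Its log2 fold change was -1.20 ± 0.21 (SE), a ratio of 0.436, with a 95% interval of -1.68 to -0.71. By edgeR the adjusted p was 0.105 over all genes, whereas by DESeq2 it was 0.000228. The fold change was -0.82 without Parental library 1 and -1.50 without Parental library 2, and edgeR called it (adjusted p = 0.0424) only in that second case among the libraries left out.

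The other sensors and factors had smaller fold changes. EIF2AK3, which encodes PERK, read 17.7 and 18.6 in C4K13A and 19.7 CPM in C5K13A, against 28.5 and 20.5 CPM in Parental. Every K13A library was below both Parental libraries, the nearest values being under 1 CPM apart, and edgeR's adjusted p was 0.487 for a log2 fold change of -0.40, which was -0.14 without Parental library 1. ATF6 had a log2 fold change of -0.28 (95% interval -0.69 to 0.12). XBP1, the factor made active by ERN1, read 276 and 291 in C4K13A and 243 CPM in C5K13A, against 260 and 298 CPM in Parental, a log2 fold change of -0.05 (95% interval -0.41 to 0.32). CREB3L2, a membrane-bound factor of the ATF6 type, had one of 0.10.

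**Figure D3:**
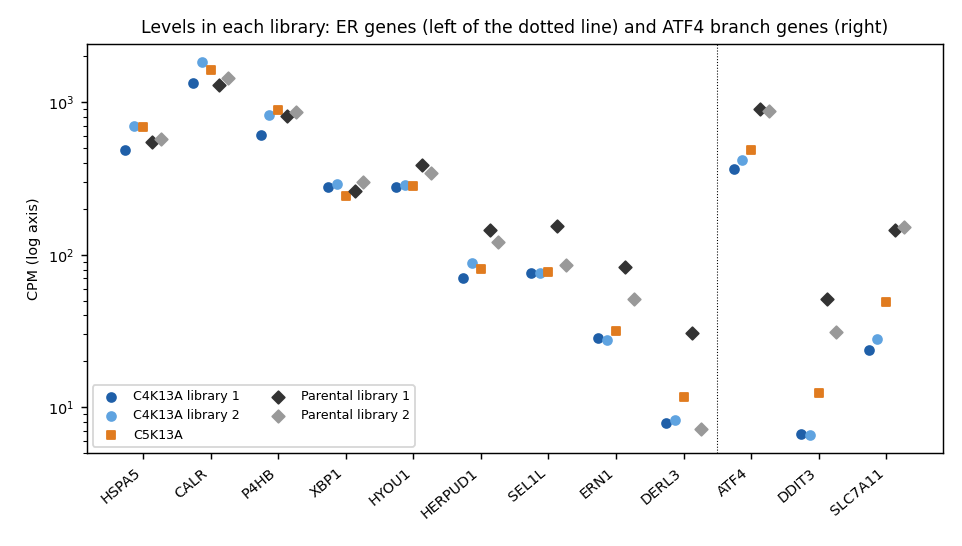
CPM on a log axis of 9 ER genes and, right of the dotted line, 3 genes of the ATF4 branch in each of the 5 libraries. ERN1, HERPUD1 and HYOU1 are lower in every K13A library, SEL1L and DERL3 are set apart mainly by Parental library 1, ATF4 has a gap close in size to that of ERN1, and DDIT3 and SLC7A11 have wider ones.

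The degradation genes leaned lower, 9 of 10 having a negative log2 fold change with a median of -0.22, although edgeR called 0 of them and DESeq2 called HERPUD1. Within the 3 libraries of high mitochondrial ribosomal RNA, which leave out Parental library 1 and C4K13A library 1, 6 of the 10 were negative with a median of -0.07. Between the pair left out, C4K13A library 1 against Parental library 1, 9 of the 10 were negative with a median of -0.47. Over all K13A libraries, 7 of 21 other genes of the degradation machinery were negative and their median was 0.09. HERPUD1 (ENSG00000051108, chr16:56932048-56944863 in GENCODE v29 of GRCh38, plus strand), a membrane protein that organises the HRD1 ubiquitin ligase complex, read 70.4 and 88.2 in C4K13A and 80.6 CPM in C5K13A, against 145 and 122 CPM in Parental. The groups were well apart relative to the spread within either. Its log2 fold change was -0.74 ± 0.16 (SE), a ratio of 0.597, with a 95% interval of -1.12 to -0.37 (edgeR, adjusted p = 0.184, and DESeq2, adjusted p = 0.0163). It stayed between -0.87 and -0.61 when any 1 library was left out.

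SEL1L and DERL3 had negative fold changes that rested on Parental library 1. SEL1L, the adaptor of the HRD1 complex, read 75.9 and 75.5 in C4K13A and 77.6 CPM in C5K13A, against 154 and 85.2 CPM in Parental. The log2 fold change was -0.65 with both Parental libraries (edgeR, adjusted p = 0.373) and -0.16 without Parental library 1. DERL3, a derlin of the channel through which proteins leave the ER, read 7.88 and 8.27 in C4K13A and 11.6 CPM in C5K13A, against 30.8 and 7.24 CPM in Parental. Its log2 fold change of -1.04 (95% interval -2.20 to 0.12) turned to 0.35 without Parental library 1. Of the exon bases of DERL3 77.0% also lie in exons of SMARCB1 on the opposite strand, and since the strand setting of the counting is not given in the sources used here, reads of the pair cannot be told apart. SMARCB1 itself had 5790 and 5538 counts in C4K13A and 5010 in C5K13A, against 5363 and 6483 in Parental, Parental library 1 being the lower of that pair.

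The remaining degradation genes had log2 fold changes between -0.31 and 0.11. SYVN1, the HRD1 ubiquitin ligase itself, averaged 93.2 ± 7.72 CPM in K13A (SD, n = 3) and 102 ± 16.4 CPM in Parental (SD, n = 2), a log2 fold change of -0.13. EDEM1, EDEM2 and EDEM3, which trim mannose from glycoproteins bound for degradation, had log2 fold changes of -0.24, -0.12 and -0.21. DERL1 and DERL2, the other derlins, had log2 fold changes of 0.11 and -0.31. OS9, a lectin that hands trimmed glycoproteins to SEL1L, had a log2 fold change of -0.04. At the translocon, SEC61B, a subunit of the channel into the ER, was at 77.6 and 96.7 in C4K13A and 75.3 CPM in C5K13A, against 64.2 and 71.7 CPM in Parental, all K13A libraries being higher (log2 fold change 0.29, edgeR adjusted p = 0.567). SERP1, which steadies membrane proteins during translocation, had a log2 fold change of -0.27, with 160 and 182 in C4K13A and 230 CPM in C5K13A, against 245 and 217 CPM in Parental.

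The genes of the ATF4 branch, listed with earlier results of these data known, had a lower median in the same libraries, with genes ranging widely. ATF4 itself read 365 and 416 in C4K13A and 483 CPM in C5K13A, against 902 and 871 CPM in Parental, a log2 fold change of -1.07 ± 0.17 (SE; edgeR, adjusted p = 0.0735, and DESeq2, adjusted p = 1.56e-05). DDIT3 is the factor CHOP, which PERK and ATF4 induce under ER stress. It read 6.64 and 6.61 in C4K13A and 12.4 CPM in C5K13A, against 51.5 and 31.3 CPM in Parental. Its log2 fold change was -2.28 (edgeR, adjusted p = 0.0524, above the threshold, and DESeq2, adjusted p = 8.65e-09). SLC7A11, the cystine transporter, read 23.6 and 28.2 in C4K13A and 49.3 CPM in C5K13A, against 144 and 152 CPM in Parental, and fell by 2.14 on the log2 scale (edgeR, adjusted p = 0.0446). The other genes that fell by edgeR were GDF15, a secreted stress cytokine (log2 fold change -3.66), CTH, which makes cysteine (-2.40), and ADM2, a secreted peptide hormone (-1.38). SESN2, SLC6A9, SARS1, CARS1 and MTHFD2 had log2 fold changes between -1.70 and -0.79 and were called by DESeq2 but not by edgeR. K13A libraries were all below both Parental libraries for 39 of 47 genes, beside the 14.9% of all genes given above, and all above for 2, ATF5 and ALDH18A1. DESeq2 called 21 of the 47 lower, where it called 1.51% of all genes lower. The count of 4 by edgeR was 14 without C5K13A (where 0.639% of all genes were called). It was 0 without C4K13A library 1 (0.0752% of all genes) and 0 without C4K13A library 2 (0.0295%), settings at which few genes of any kind were called. Leaving out a Parental library leaves 1 in that group, so only the median is given for it. Whichever library was left out, the median stayed between -0.98 and -0.73.

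The separation of the lists was visible in each K13A library. Relative to the Parental mean, the average log2 level of the ER genes was -0.32 and -0.07 in C4K13A and -0.09 in C5K13A, against 0.09 and -0.09 in Parental. The same average over the ATF4 branch was -1.28 and -1.20 in C4K13A and -0.71 in C5K13A, against -0.08 and 0.08 in Parental. For the ER genes C4K13A library 2 thus lay inside the range of the 2 Parental libraries, and C4K13A library 1 lay below it. C5K13A lay at its lower edge (-0.0897, against -0.0914 in Parental library 2). For the ATF4 branch all 3 K13A libraries lay below the Parental range. In C4K13A library 1 the ATF4 branch was 0.96 log2 units below the ER genes, in C4K13A library 2 1.13 and in C5K13A 0.62, against 0.17 and -0.17 in Parental library 1 and library 2, all as differences from the Parental mean. C4K13A library 1 was the lowest of the 5 libraries for 19 of 32 ER genes, against 18.4% of all genes, and the highest for 0.

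**Figure D4:**
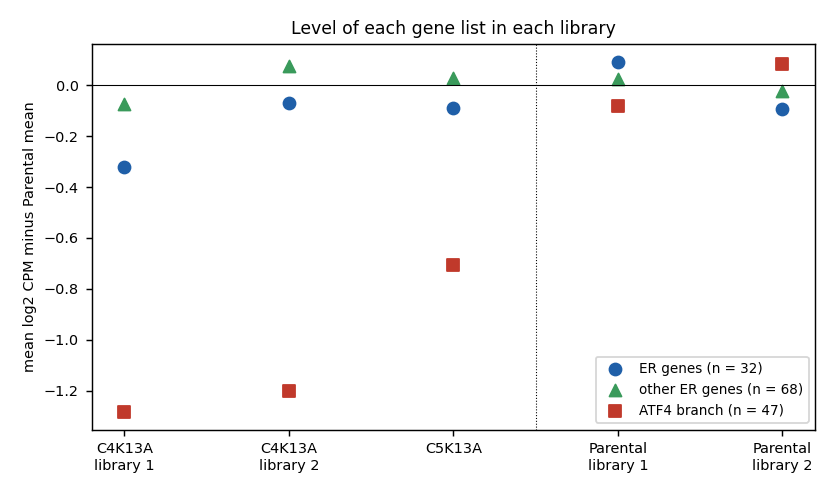
Average log2 CPM of each gene list in each library minus its mean over the 2 Parental libraries. The ER genes and the other ER genes stay between -0.32 and 0.09, and the ATF4 branch is at -1.28 and -1.20 in C4K13A and -0.71 in C5K13A.

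Mitochondrial ribosomal RNA, which can vary with the depletion of ribosomal RNA and with mitochondrial content, split the libraries into a low pair (C4K13A library 1 and Parental library 1) and 3 high ones at 200 CPM, and its part in the results was looked at only as a covariate and as values within each side. Within the low pair the median log2 difference, K13A minus Parental, was -0.26 over the ER genes and -1.02 over the ATF4 branch. Within the high libraries it was 0.02 over the ER genes and -0.83 over the ATF4 branch. ERN1 was at -1.53 in the low pair and -0.80 in the high libraries, HERPUD1 at -1.05 and -0.53, HYOU1 at -0.47 and -0.27, and SEL1L at -1.02 and -0.16.

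The clones were also compared with Parental separately, in a fit in which C5K13A, with its single library, was assumed to vary as much as the other groups, and the comparisons share the Parental libraries. In C4K13A the ER median was -0.12 log2 units and edgeR called 0 of 32, where 0.699% of all genes were called, while 5 were lower at an unadjusted p under 0.05, against 7.93% of all genes. DESeq2 called ERN1 and HERPUD1 lower, and 2.52% of all genes. With edgeR, 1 ER gene was called without Parental library 1 (ERN1) and 4 were called without Parental library 2 (ERN1, HERPUD1, SEL1L and DERL3), settings at which 1.38% and 7.59% of all genes were called. The smallest adjusted p in edgeR belonged to ERN1 (log2 fold change -1.26, adjusted p = 0.0721), followed by HERPUD1 (-0.75), DERL2 (-0.50) and SEL1L (-0.66). The C4K13A libraries did not overlap Parental for 11 ER genes that were lower, where 22.9% of all genes were, and for 2 that were higher, where 21.2% of all genes were. Over the ATF4 branch the C4K13A median was -0.99 and edgeR called 16 of 47 lower, where 0.602% of all genes were, which was 29 without Parental library 1 (1.38% of all genes) and 27 without Parental library 2 (7.59% of all genes).

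In C5K13A the ER median was 0.01 log2 units, and edgeR called 0 of 32, where 0.0484% of all genes were called. DESeq2 called 0 as well, and 2 were lower at an unadjusted p under 0.05, against 4.37% of all genes. These were ERN1, with a log2 fold change of -1.08 (edgeR, adjusted p = 0.523), and HERPUD1, with one of -0.72 (adjusted p = 0.678). SEL1L and HYOU1 came next, with log2 fold changes of -0.62 and -0.37. The single C5K13A library was below both Parental libraries for 9 ER genes, against 35.9% of all genes, and above both for 11, against 31.5%. Without Parental library 2, edgeR called 3 ER genes lower in C5K13A, namely ERN1, SEL1L and DERL3, and 3.04% of all genes in either direction. Over the ATF4 branch the C5K13A median was -0.62, and edgeR called 0 of 47 whereas DESeq2 called 8 lower, where 0.896% of all genes were, and 21 were lower at an unadjusted p under 0.05. EdgeR called 4 of them without C4K13A library 1 (0.738% of all genes), without C4K13A library 2 (0.699%) or without Parental library 1 (0.190%), and 9 without Parental library 2 (3.04%).

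Set against each other, the clones gave no ER gene past the threshold. The median log2 fold change of C5K13A over C4K13A was 0.05, and edgeR called 0 of 32, where 0.066% of all genes were called. DESeq2 called 0, and 0 ER genes had an unadjusted p under 0.05, against 6.42% of all genes. ERN1 and HERPUD1 had differences between the clones of 0.18 (95% interval -0.49 to 0.85) and 0.03 (95% interval -0.52 to 0.59). A difference between the clones inside those intervals was therefore not excluded. C5K13A was above both C4K13A libraries for 14 ER genes, against 34.5% of all genes, and below both for 6, against 36.1%. The smallest adjusted p values were those of MANF, a secreted BiP-binding factor (0.50), DERL2 (0.52), SERP1 (0.43) and DNAJB11 (0.39, all log2 fold changes). MANF read 118 CPM in C5K13A and 75.6 and 92.8 CPM in C4K13A, beside 102 and 108 CPM in Parental. In the ATF4 branch the same comparison had a median of 0.44, with 41 of 47 genes higher in C5K13A, and edgeR called 0 while DESeq2 called 2 higher, where 0.537% of all genes were, and 13 were higher at an unadjusted p under 0.05, where 3.49% of all genes were. Without Parental library 1 edgeR called 4 (0.716% of all genes), and without Parental library 2 it called 2 (0.628% of all genes).

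**Figure D5:**
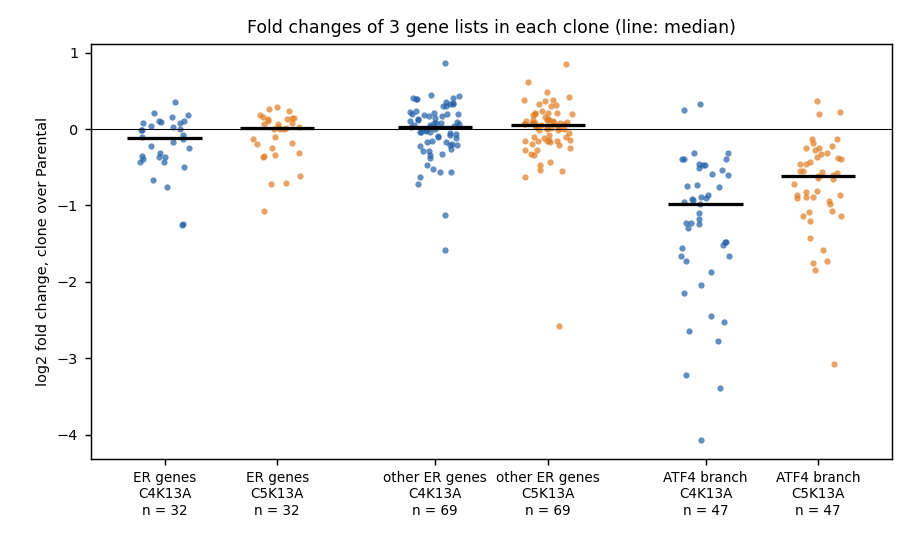
Fitted log2 fold changes of single genes in each clone over Parental for the ER genes, the other ER genes and the ATF4 branch, with a black line at each median. The ER medians are -0.12 in C4K13A and 0.01 in C5K13A, and those of the ATF4 branch -0.99 and -0.62.

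A further list of 69 ER genes outside the 32, covering oxidation, glycan processing, translocation, the degradation machinery and the processing of the sensors, gave the wider setting. Of these 68 passed the filter for all K13A libraries over Parental (CREB3L1 did not), the median log2 fold change was 0.04, and edgeR and DESeq2 each called 0. An unadjusted p under 0.05 was found for 8, of which 4 were lower and 4 higher, and 8 of 68 is 11.8% against 11% of all genes. The log2 fold changes of the 2 genes with the smallest adjusted p in each role were as follows. In folding and oxidation, ERP29, an ER folding factor, was at -0.58, and at -0.22 without Parental library 1, and HSPA13, an Hsp70 of microsomes, was at -0.59. In glycan processing, MLEC, a lectin for early N-glycans, was at 0.46 and MOGS, the glucosidase that makes the first cut, at 0.14. In translocation, SSR1, a subunit of the translocon-associated complex, was at 0.41 and SEC11C, a signal peptidase subunit, at -0.52, and at -0.04 without Parental library 1. In degradation, ERLEC1, a lectin, was at -0.42 and VCP, the ATPase that pulls proteins out of the ER membrane, at 0.36. In sensor processing, CREB3L4, a prostate-enriched relative of CREB3L2, was at 0.65 and MBTPS1, the protease that cleaves ATF6, at -0.35. MLEC read 526 and 680.3 in C4K13A and 616 CPM in C5K13A, against 414 and 467 CPM in Parental, with no overlap.

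Sorted by promoter letters, the ER genes with either form of ERSE had a median near 0. The 11 genes with an ERSE or ERSE-II match had a median log2 fold change of -0.00, with a range of -0.74 (HERPUD1) to 0.22 (CALR). The 18 matched genes with neither had a median of -0.13, with a range of -1.20 (ERN1) to 0.29 (SEC61B). HERPUD1, whose promoter letters are given above, was the gene that held both an ERSE-II and a CARE match, and it had the lowest fold change of the 11. CREB3L2, the other ER gene with a CARE match, had a log2 fold change of 0.10. Its match, at chr7:137932965-137932972, lay 17 to 24 bases after a start inside the gene, which spans chr7:137874979-138002067 on the minus strand. The match of HERPUD1 lay at -176 to -169 from its start. In the ATF4 branch 13 genes held a CARE match, with log2 fold changes from -2.64 (FGF21) to -0.38 (NARS1). GDF15, CTH, SLC7A11 and ADM2, which edgeR called, were not among them, and not every gene of the branch had a promoter entry. Whether a CARE match goes with the size of a fold change was not tested.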

How the data were processed

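Per the labels' protocols, C4-2B total RNA was purified on columns, cleared of DNA with DNase I, and made into libraries with the RiboErase method, which removes ribosomal RNA, for an Illumina HiSeq. The authors deposited raw read counts per gene, and the submitters' processing notes name bcl2fastq, STAR 2.5 and featureCounts 1.4.6-p5 of Subread. Which genome build, annotation and strand setting were used, and how multi-mapping reads were treated, is not given in the sources used here. Of the 58812 gene IDs, 37428 had a count in at least 1 library and 55297 were found in GENCODE v29, which gave symbols, positions and exon lengths.

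Counts were tested with edgeR 4.0.16 in R 4.3.3 (filterByExpr, TMM normalization, quasi-likelihood F test, Benjamini-Hochberg adjustment over all genes tested, threshold 0.05). All K13A libraries against Parental was a 2-group fit (20649 genes, 3 residual degrees of freedom). The comparisons of single clones came from a 3-group fit (22743 genes, 2 residual degrees of freedom). CPM values are counts scaled by the TMM library sizes of the first fit, the SE is the log2 fold change divided by the square root of F, and the 95% interval uses the test's moderated degrees of freedom. Levels per kilobase divide CPM by the total length of a gene's exons. DESeq2 1.42.0, other normalization and filters, a replicate block, a ribosomal RNA covariate and leaving out each library were alternatives. The scripts were tested on simulated counts. The ER genes, the other lists and the tests were chosen with earlier results of these data known. All 32 ER genes are reported for all K13A libraries, and for the single clones the 4 with the smallest adjusted p. From the other lists the 2 genes of each role with the smallest adjusted p were named, and ATF4 itself was added after its values were seen.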

Additional observations from a re-analysis of the deposited data

Results flagged for a closer look

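MANF and DNAJB11 were singled out because the clones lay on opposite sides of Parental, with C5K13A above both Parental libraries and both C4K13A libraries below them. MANF read 118 CPM in C5K13A and 75.6 and 92.8 CPM in C4K13A, beside 102 and 108 CPM in Parental, and the log2 fold change of C5K13A over C4K13A was 0.50 (edgeR, adjusted p = 0.792). DNAJB11 read 93.0 CPM in C5K13A and 68.0 and 74.98 CPM in C4K13A, beside 80.0 and 89.4 CPM in Parental, with a log2 fold change of 0.39 (edgeR, adjusted p = 0.845). The test of the difference between the clones missed the threshold for both. Such an arrangement was found for 6.25% of the ER genes, against 6.78% of all genes tested, and rests on a single C5K13A library.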

How the results depend on the processing

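The ER median for all K13A libraries over Parental stayed between -0.15 and -0.00 in every alternative run, and the median of all genes moved by less than 0.1 log2 units. The number of ER genes called by edgeR depended on the filter and the tool. With no filter on low counts, 4 were called in all K13A libraries, 4 in C4K13A and 1 in C5K13A over Parental. At that setting 3.12% (1167 genes), 3.60% and 1.54% of all genes were called, against 0.203% (42 genes), 0.699% and 0.0484% with the filter. DESeq2 called 2 lower in all K13A libraries and 2 in C4K13A, where it called 1.51% and 2.52% of all genes lower. With a library left out, the ER median for C5K13A over C4K13A ran between -0.061 and 0.22. For the ATF4 branch in all K13A libraries, the 4 genes called became 31 with no filter and 21 by DESeq2. They became 7 with the ribosomal RNA covariate (0.344% of all genes) and 11 in the 3-group fit (0.462%). With a filter at 5 CPM they became 0, where 2 of 11439 genes were called (0.0175%). With the C4K13A libraries summed they became 0 as well, where 0.0534% of all genes were called. With a K13A library left out the count ran from 0 to 14. With any library left out the medians ran from -0.98 to -0.73. In C4K13A the 16 became 32, 7 and 29 under no filter, the 5 CPM filter and DESeq2, 28 with the covariate and 12 to 29 with a library left out (medians -1.14 to -0.90). In C5K13A the 0 became 11 with no filter, 8 by DESeq2, 3 with the covariate and 4 to 9 with a library left out (medians -0.67 to -0.46). In C5K13A over C4K13A the 0 became 8 with no filter (1.13% of all genes) and 1 with the covariate (0.405%), and DESeq2 called 2 higher (0.537%). Of all genes, 0.268% with the 5 CPM filter and 3.42% with the covariate were called in C4K13A, and 0.462% with the covariate in C5K13A. The cause of these shifts was not tested.

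Replicate numbers pair 2 C4K13A with 2 Parental libraries, whose deviations correlated at 0.196, too few pairs to show a shared origin. With the replicate block, ER genes called were 0 in all K13A libraries and 1 in C4K13A (ERN1, adjusted p = 0.00734), and ATF4 branch genes called were 6, 28, 5 and 3 in all K13A libraries, C4K13A, C5K13A and C5K13A over C4K13A, where 0.441%, 3.42%, 1.34% and 0.765% of all genes were called. In C4K13A the ribosomal RNA covariate separates the same libraries as the block.

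Some fold changes of ER genes turned sign, most of them small, with DERL3 and DNAJB9 as larger exceptions. HSP90B1 was 0.0082 with RLE size factors, 0.0119 by DESeq2 and 0.0012 in the 3-group fit, and CRELD2 was -0.0105 with the 5 CPM filter and -0.0033 with the covariate. With a library left out the log2 fold change ran from -0.0817 to 0.0780 for HSP90B1, -0.0029 to 0.22 for SDF2L1, -0.32 to 0.0083 for MANF, -0.0156 to 0.12 for CRELD2, -0.65 to 0.0289 for DNAJB9, -0.0105 to 0.27 for DNAJC3, -0.22 to 0.0424 for P4HB, -0.0074 to 0.18 for PDIA3, -0.0085 to 0.19 for PDIA6, -0.14 to 0.0550 for XBP1, -0.28 to 0.0423 for SYVN1, -0.43 to 0.0596 for EDEM3, -1.73 to 0.35 for DERL3 and -0.22 to 0.16 for OS9.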
